A study of Mus musculus with 2 samples.

Results

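Cholangiocytes, the epithelial cells that line the bile ducts, were followed in single-cell RNA-seq libraries of liver non-parenchymal cells from a normal mouse and from a mouse with liver fibrosis. Cells were chosen by a rule on raw unique molecular identifiers (UMIs, 1 per captured transcript). A member held 5 or more UMIs in sum of Epcam, Sox9, Tm4sf4 and Krt8 with at least 2 of these 4 genes detected, at most 1 UMI of the mesothelial genes Msln and Upk3b, and under 25 UMIs per 10000 of the endothelial genes Kdr, Ptprb and Flt4. The rule found 370 of the 13603 cells kept after a filter on mitochondrial transcripts (under 10% of UMIs) and detected genes (over 200), namely 257 of 7471 normal cells (3.44%, exact 95% binomial interval 3.04 to 3.88) and 113 of 6132 fibrosis cells (1.84%, 1.52 to 2.21). At a mitochondrial limit of 5% the order of the shares was the opposite, 0.594% and 0.821% with 11 and 14 members. Both animals were male C57BL/6 mice aged 8 weeks. The fibrosis animal was injected with carbon tetrachloride (CCl4), a toxin that hepatocytes convert to a reactive radical, 2 times a week for 6 weeks. The normal library carries the label of a quiescent state, and olive oil served as the control treatment in the study. Livers were digested with collagenase and hepatocytes were removed by slow centrifugation, so the share of any cell type depends on how well it survives that isolation. With 1 library per condition, no difference between conditions could be tested. All intervals below cover counting error only, and cells vary by more than that.

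Cholangiocytes alter the bile that hepatocytes secrete. They move chloride and water through channels such as Cftr, take up bile salts and sugars, and sense flow through a primary cilium that carries the polycystins and Pkhd1. During chronic liver injury they can multiply and spread in a ductular reaction, secreting factors that act on neighbouring stellate cells, fibroblasts and leukocytes. Yap, a transcriptional coactivator held back by the Hippo kinases, and Notch signalling are both active in this epithelium and are known to take part in its response to injury.

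The rule gathered more than 1 kind of cell. The sum of the 4 rule genes had a median of 41 UMIs in normal members (range 5 to 390) and 53 in fibrosis members (range 5 to 352), and all 4 genes were detected in 203 and 76 members. At the edge of the rule, the 9 normal and 3 fibrosis members with a sum of 5 held a median of 23.7 and 138 UMIs per 10000 of Spp1 and Clu, and the 23 and 4 cells that only missed the rule through a sum of 4 held 5.12 and 1.16. Spp1 (osteopontin) and Clu (clusterin), secreted proteins that are abundant in bile duct epithelium and were not used by the rule, divided the members. At 100 or more UMIs per 10000 of both together stood 210 normal members (81.7%, exact interval 76.4 to 86.2) and 87 fibrosis members (77.0%, 68.1 to 84.4), called Spp1/Clu-high cells below. This limit was set after the members had been seen. The nearest member below it lay at 99.3 for normal and 43.0 for fibrosis cells, the nearest above it at 104 and 138, and 2 normal and 0 fibrosis members fell between 50 and 100. In addition, 17 normal and 31 fibrosis cells outside the rule also passed 100.

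The Spp1/Clu-high cells carried the cholangiocyte markers that had no part in the rule. Bicc1, an RNA-binding protein of ciliated ducts, had a UMI in 99.0% of the normal and 97.7% of the fibrosis cells, Krt18 in 99.0% and 96.6%, Cdh1 in 98.6% and 97.7%, and Cldn7 in 90.5% and 92.0%. In the other 47 normal and 26 fibrosis members these shares were 12.8% and 34.6% for Bicc1, 8.51% and 0 of 26 cells for Cldn7, 57.4% and 38.5% for Cdh1, and 74.5% and 73.1% for Krt18, a keratin that hepatocytes also express. For Krt19 the shares were 88.6% and 71.3% in Spp1/Clu-high cells and 14.9% and 3.85% in the others. In lymphoid cells of the same libraries, Bicc1 had a UMI in 1.86% of 1020 normal and 4.71% of 85 fibrosis cells, Cdh1 in 5.39% and 7.06%, Cldn7 in 0.686% and 1.18%, Krt18 in 14.2% and 3.53%, and Spp1 in 33.9% and 54.1%, at median depths of 3357 and 2239 UMIs a cell against 9656 and 11199 in Spp1/Clu-high cells. Graph clustering of each library placed 209 of the 210 and 85 of the 87 Spp1/Clu-high cells in a single cluster, of 235 normal and 90 fibrosis cells. The clustering did not leave out the rule genes or Spp1 and Clu, so it is not independent of how the cells were chosen. By the markers outside the rule, the label of cholangiocytes holds for the Spp1/Clu-high cells, while in the remainder Bicc1, Cldn7 and Krt19 were detected in a minority of cells.

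Most of the remainder were rich in hepatocyte transcripts. A list of 15 hepatocyte genes (Alb, Apoa1, Ttr, Fgb, Cyp2e1 and others) reached 500 or more UMIs per 10000 in 41 of the 47 normal and 18 of the 26 fibrosis cells, with medians of 1880 and 919 against 217 and 97.9 in Spp1/Clu-high cells. These hepatocyte-list cells passed the rule with fewer UMIs of its genes, a median sum of 8 for normal and 19 for fibrosis cells, against 49.5 and 77 in Spp1/Clu-high cells. A list of 6 stellate cell and fibroblast genes reached 50 per 10000 in 1 normal and 6 fibrosis cells of the remainder, and in 0 and 2 Spp1/Clu-high cells. Of the remaining 5 normal cells, 3 each held over 1000 UMIs of the immunoglobulin light chain gene Igkc and together 15821 of the 16914 Igkc UMIs of all normal members. The remainder gave 19.7% of all members' UMIs in the normal library and 34.6% in the fibrosis library, so a level summed over all members mixes these cells in unequal parts.

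**Figure D1:**
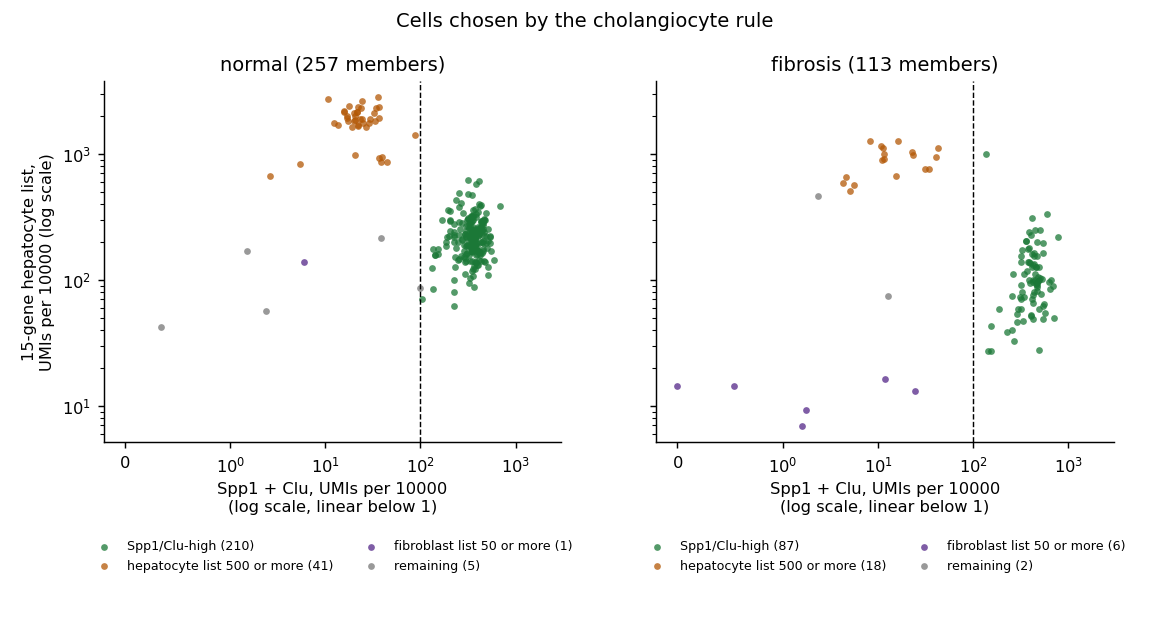
Each point is 1 cell chosen by the rule in the normal (257 cells) and the fibrosis library (113 cells). The x axis gives Spp1 and Clu together and the y axis the 15-gene hepatocyte list, both in UMIs per 10000 on log scales, with the limit of 100 as a dashed line. The Spp1/Clu-high cells (210 and 87) form a group to the right of the line, and the hepatocyte-list cells (41 and 18) stand above and to its left.

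The libraries held 44062632 and 53288463 UMIs in 8130 and 6437 cells. Members were deep, with medians of 9917 UMIs (range 1622 to 75847) in normal and 12712 (1375 to 90434) in fibrosis cells. The libraries shared 15 cell barcodes, of which 0 belonged to members. Transcripts of other cell types in lymphoid cells differed between the libraries, and whether they were free RNA or came from droplets with a second cell was not tested. The hepatocyte list stood at 241 UMIs per 10000 in normal and 33.6 in fibrosis lymphoid cells, which should not express it (highest cells 1220 and 209), while the stellate cell and fibroblast list stood at 2.34 and 12.2 and a list of 7 macrophage genes at 2.17 and 8.18. Lymphoid cells were limited to 1 UMI of macrophage markers, which caps that background, and a limit of 5 UMIs would give 1461 and 570 in place of 1020 and 85 cells. The level in lymphoid cells is therefore given beside many of the genes below. The make-up of this group also differed. Per cell, a list of 5 T and NK cell genes had a median of 13.3 UMIs per 10000 in normal and 0 in fibrosis lymphoid cells. For a list of 3 B cell genes the medians were 2.58 and 22.3. How far this shaped the lymphoid levels of genes that these cells express themselves was not tested.

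The 15 genes that set the members most apart from all other kept cells were ranked by the smaller of their folds in the 2 libraries, so that they were chosen to be high in both. They are a description only, since the rule's own genes also shaped the groups. Sftpd, surfactant protein D, was 109 times higher in normal and 102 times higher in fibrosis members than in the other cells of the library. Slc5a1, the sodium-glucose cotransporter, was 89.1 and 91.8 times higher, and Pkhd1, the fibrocystin gene mutated in polycystic liver and kidney disease, 85.5 and 144 times. The other 12 of the 15 leading genes included Ddit4l, Chmp4c, Cldn7, Krt23, Scara3, Ankrd1, Pdzk1ip1, Shank2, Prom1, Tstd1 and Muc1, and the 12 lay at 41.6 to 97.9 times in the normal and 50.8 to 99.2 times in the fibrosis library. Ankrd1 alone of these 15 was on the list of Yap targets.

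Normal and fibrosis members were then compared by their summed UMIs per 10000. Over all members, 2116 genes reached 1 UMI per 10000 in either library, of which 127 (6%) were 2 or more times higher and 92 (4.35%) 2 or more times lower in fibrosis, with a median log2 ratio of 0.10. In Spp1/Clu-high cells, 61 of 2200 genes (2.77%) were at least 2 times higher and 68 (3.09%) at least 2 times lower, with a median log2 ratio of 0.07. Of the 127 and 61 genes called higher, 45 were shared, which is 35.4% of the first list and 73.8% of the second. Of the 92 and 68 called lower, 28 were shared, or 30.4% and 41.2%.

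The largest ratios over all members included those of stellate cell and fibroblast genes, with 5 of the 6 on the list past the level filter, all 5 higher and a median log2 ratio of 6.82. Col1a1, a type I collagen chain, was counted 3 and 2524 times, with 40.4% of the fibrosis UMIs in 1 cell. The fixed naming rule leaves out genes with over 20% of the UMIs in 1 cell, and genes whose log2 ratio lies within 1 of that in lymphoid cells. Several of the 10 highest genes by that rule differed chiefly in the hepatocyte-list cells. Gstp1, a glutathione transferase, stood at 0.533 UMIs per 10000 in normal and 10.2 in fibrosis hepatocyte-list cells, but at 0.296 and 0.828 in Spp1/Clu-high cells. Ccl9, a chemokine, stood at 0.206 and 3.51 in the hepatocyte-list cells and 0.0433 and 0.430 in the Spp1/Clu-high cells. Cdca3, which promotes entry into mitosis, stood at 0 and 3.48 in the former and 0.0469 and 0.225 in the latter. In the opposite direction, Mup3, a major urinary protein, fell from 212 to 14.7 UMIs per 10000 in hepatocyte-list cells, and Ces3b, a carboxylesterase, stood at 5.31 and 0.154. Mup3 was also present at 26.6 and 1.13 in lymphoid cells. Pck1, Ces1f, Slc38a3, Cyp2d26, Gnmt, Gm4788, Fgb and Abcb11 were likewise among the 10 lowest ratios over all members, at 0.115 to 0.265, and all 8 stood higher in the hepatocyte-list cells than in lymphoid cells of the same library.

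A list of 10 mitotic genes (Mki67, Top2a, Cdk1 and others) was also uneven among the members. It summed to 0.189 UMIs per 10000 in the 41 normal and 16.9 in the 18 fibrosis hepatocyte-list cells, and 0 of the former and 15 of the latter held 5 or more of its UMIs. In the fibrosis cells, 3 cells held 72.7% of these UMIs. In Spp1/Clu-high cells the list stood at 1.58 (95% Poisson interval 1.44 to 1.74) and 3.18 (2.90 to 3.47), with 3 cells of each library holding 57.1% and 59.8%. After each cell was thinned to 2000 UMIs, 3.38% of 207 normal (exact interval 1.37 to 6.84) and 7.06% of 85 fibrosis Spp1/Clu-high cells (2.63 to 14.7) held 2 or more UMIs of the list, so a difference in the share of mitotic cells was not detectable at this depth. The unthinned shares were 12.9% and 39.1%.

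Values from here on are those of the 210 normal and 87 fibrosis Spp1/Clu-high cells, unless all members are named. Thinned shares refer to 207 and 85 of them, since 3 and 2 held fewer than 2000 UMIs, and to 959 normal and 57 fibrosis lymphoid cells.

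Yap acts on its targets through the DNA-binding Tead factors. Of the 10 targets on the list, 6 reached 1 UMI per 10000, 2 rose past 2 times (Ankrd1 and Ctgf), 0 fell, and the median log2 ratio was 0.55. Among all 2200 genes past that level, 2.77% rose and 3.09% fell. Ankrd1 (chr19:36111961-36120099, minus strand, mm10), a nuclear ankyrin-repeat protein induced by mechanical load, rose from 1.47 UMIs per 10000 (1.33 to 1.62) to 6.89 (6.48 to 7.31), a ratio of 4.69 (4.18 to 5.26). Per cell it ranged from 0 to 18.4 with a median of 0 in the normal library and from 0 to 48.4 with a median of 3.12 in the fibrosis library, so the ranges overlapped while the middle of the fibrosis cells lay higher. Over all members its ratio was 3.79 (3.38 to 4.26).

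Ctgf (chr10:24595442-24598683, plus strand), a secreted matricellular protein that promotes fibrosis, rose from 1.09 (0.968 to 1.22) to 4.25 UMIs per 10000 (3.94 to 4.59), a ratio of 3.91 (3.41 to 4.50). Its median per cell was 0 in normal and 2.03 in fibrosis cells, with highest cells of 9.60 and 34.9. Cyr61 (chr3:145646976-145649981, minus strand), a matricellular protein of the same family, was at 5.69 (5.42 to 5.98) and 10.7 (10.2 to 11.3), a ratio of 1.89 (1.76 to 2.02) that stayed just under 2 times. In lymphoid cells Ctgf was at 0.0747 and 0 and Cyr61 at 0.163 and 0.470 UMIs per 10000, far below the Spp1/Clu-high cells. The other targets that passed the level filter lay near their normal level, with ratios of 1.14 for Amotl2 (0.984 to 1.32), 1.08 for Crim1 (0.883 to 1.31) and 0.850 for the Hippo scaffold Wwc1 (0.761 to 0.948).

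After thinning, the share of cells with a UMI of Ankrd1 was 15.5% (10.8 to 21.1) in normal and 48.2% (37.3 to 59.3) in fibrosis Spp1/Clu-high cells, against 0.209% and 1.75% in lymphoid cells. For Ctgf the shares were 19.3% (14.2 to 25.4) and 43.5% (32.8 to 54.7), against 1.77% and 0 of 57 lymphoid cells, where a floor of 3 counts allows a share of up to 5.26% and the exact interval reaches 6.27%. For Cyr61 they were 54.6% (47.5 to 61.5) and 75.3% (64.7 to 84.0), against 3.65% and 8.77%. Without thinning the shares were 42.4% and 71.3% for Ankrd1, 45.7% and 72.4% for Ctgf, and 82.4% and 95.4% for Cyr61. As a description of these libraries, 17.9% of thinned normal cells (12.9 to 23.8) and 56.5% of fibrosis cells (45.3 to 67.2) held a UMI of at least 2 of them, and 0 of 959 and 0 of 57 lymphoid cells did.

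**Figure D2:**
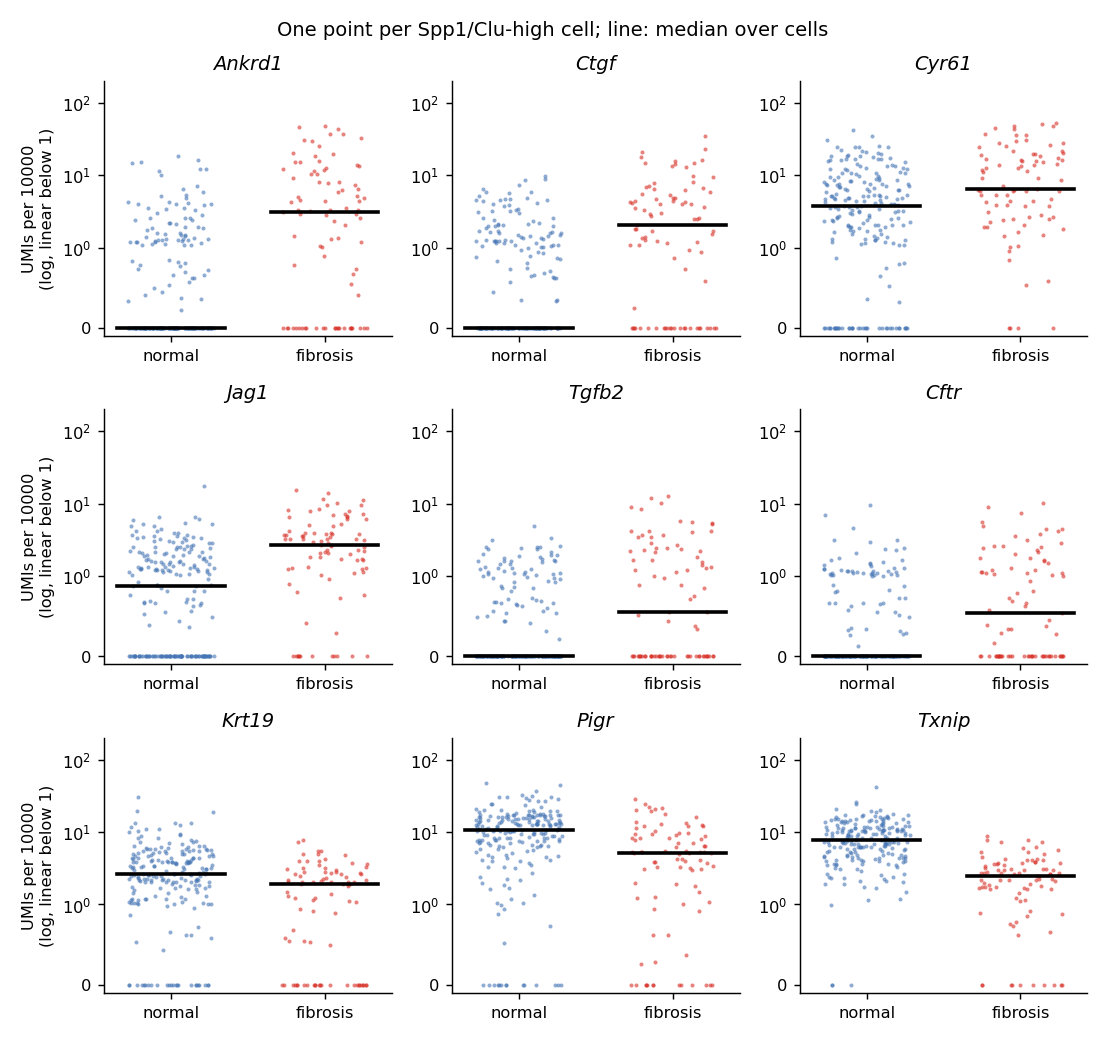
Each point is 1 Spp1/Clu-high cell of the normal (210 cells) or fibrosis library (87 cells), in UMIs per 10000 on a log axis that is linear below 1, with the median as a line, for 9 genes. The median rose from 0 to 3.12 for Ankrd1 and from 0 to 2.03 for Ctgf and dropped from 7.69 to 2.46 for Txnip, while the clouds of points overlapped for every gene shown.

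Because these targets moved unequally, the letters bound by Tead factors were looked for in their promoters. The motif GGAATG, with its reverse complement CATTCC, was searched in the 180 bases from 250 to 71 before each RefSeq start site (GRCm38.p6, the same assembly series as mm10). It occurred in 3207 of 32851 promoters of that length (9.76%), and in 5 of 10 windows of the 9 Yap target genes with an entry. No window was found for Ctgf, so of the targets that rose only Ankrd1 was searched. A match is only a match of letters. The windows of Ankrd1, which rose, Cyr61, which lay just under 2 times, and Ajuba, which differed little (0.599 and 0.764 UMIs per 10000, ratio 1.27, 0.998 to 1.62), are shown 5′ to 3′ along the gene's strand with the motif in capitals. They lie at chr19:36119915-36120094, chr3:145650056-145650235 and chr14:54577732-54577911, all on the minus strand. The motif begins 210 and 123 bases before the RefSeq start of Ankrd1, 103 before that of Cyr61, and 186 and 164 before that of Ajuba. The Ankrd1 window lies inside the gene span given above, which comes from GENCODE and begins upstream of that RefSeq start.
Ankrd1: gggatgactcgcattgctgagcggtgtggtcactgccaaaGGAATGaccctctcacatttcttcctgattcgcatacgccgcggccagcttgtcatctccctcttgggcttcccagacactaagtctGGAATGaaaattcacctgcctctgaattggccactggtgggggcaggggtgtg
Cyr61: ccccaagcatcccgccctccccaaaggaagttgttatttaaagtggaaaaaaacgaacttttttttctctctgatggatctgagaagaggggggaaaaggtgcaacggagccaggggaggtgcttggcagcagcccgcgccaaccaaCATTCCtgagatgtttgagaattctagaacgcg
Ajuba: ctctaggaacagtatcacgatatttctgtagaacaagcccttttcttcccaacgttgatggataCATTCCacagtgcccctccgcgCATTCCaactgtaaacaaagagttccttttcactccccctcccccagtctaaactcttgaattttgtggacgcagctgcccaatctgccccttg
Ajuba thus held as many copies in this window as Ankrd1, while its summed level differed by far less. Crim1 and Axl held 1 copy each, and 0 copies lay in the windows of Amotl2, Lats2, Nt5e and Wwc1. The windows of Amotl2, Lats2 and Nt5e also lie inside the GENCODE spans of these genes.

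In the Notch pathway, a ligand and a nuclear target lay on opposite sides of their normal level. Jag1 (chr2:137081456-137116644, minus strand), the ligand that directs bile duct formation and is mutated in Alagille syndrome, rose from 1.35 (1.22 to 1.50) to 3.38 UMIs per 10000 (3.09 to 3.68), a ratio of 2.49 (2.18 to 2.85). Its median per cell was 0.881 and 2.72, and its thinned share 18.4% (13.3 to 24.3) and 49.4% (38.4 to 60.5), against 1.15% and 1.75% in lymphoid cells. Notch2, the receptor needed for duct formation, stood at 0.769 and 1.15, a ratio of 1.49 (1.22 to 1.83), with 0.474 and 1.46 in lymphoid cells. Hes1, a transcriptional repressor and Notch target, stood at 11.7 and 8.16, a ratio of 0.698 (0.653 to 0.745), with 0.855 and 1.46 in lymphoid cells. Of the 9 genes on the list 3 passed the level filter, 1 rose and 0 fell, beside 2.77% and 3.09% of all 2200 genes.

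Among 15 growth and fibrogenic ligands, 6 passed the level filter, of which 1 rose, Tgfb2, and 0 fell, beside 2.77% and 3.09% of all 2200 genes. Tgfb2 (chr1:186622792-186705989, minus strand), an isoform of transforming growth factor beta, rose from 0.560 (0.475 to 0.655) to 1.73 (1.53 to 1.95), a ratio of 3.08 (2.52 to 3.78). It was detected in 6.76% (3.75 to 11.1) and 27.1% (18 to 37.8) of thinned cells, against 0.626% and 3.51% of lymphoid cells. Pdgfb, a mitogen of stellate cells, stayed under the level filter at 0.155 and 0.680 UMIs per 10000 (43 and 106 UMIs, ratio 4.38, 3.05 to 6.40), with thinned shares of 1.45% and 14.1% against 2.50% and 8.77% in lymphoid cells. In the fibrosis library its interval of 7.51 to 23.4 overlaps that of the lymphoid cells (2.91 to 19.3).

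The other 5 ligands past the level filter lay near or below their normal level. Pdgfc was equal in both libraries at 2.14 (ratio 0.998, 0.870 to 1.14). Pdgfa had a ratio of 0.809 (0.672 to 0.971), Pdgfd of 0.798 (0.654 to 0.971), the angiogenic factor Vegfa of 0.890 (0.774 to 1.02) and Wnt4 of 0.700 (0.585 to 0.836). Under the filter, Tgfb1 was counted 78 and 58 times (ratio 1.32, 0.924 to 1.88) and Tgfb3 50 and 60 times (2.13, 1.44 to 3.17).

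Integrins are the receptors by which epithelium binds its basement membrane and activates latent transforming growth factor beta. They gave 5 genes over the filter, of which 1 rose and 0 fell, beside 2.77% and 3.09% of all 2200 genes. Itgav, the alpha v subunit, rose from 0.776 (0.676 to 0.887) to 1.96 (1.75 to 2.20), a ratio of 2.53 (2.12 to 3.03), with thinned shares of 12.1% and 37.6% against 6.47% and 12.3% in lymphoid cells. With the level of a wider lymphoid group (the limit of 5 macrophage-marker UMIs) taken off, its log2 ratio dropped from 1.34 to 0.77. Its partner Itgb8 had a ratio of 1.17 (0.995 to 1.38), Itgb1 of 1.37 (1.25 to 1.50; lymphoid cells 2.63 and 5.64), and the laminin receptor subunit Itga3 of 1.77 (1.48 to 2.12). Itga2, a collagen receptor subunit, was counted 5 and 33 times, in 4 and 21 cells, a ratio of 11.7 with an interval of 4.55 to 38.5.

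Of 14 basement membrane and matrix genes, 6 passed the filter, 1 rose and 0 fell, beside 2.77% and 3.09% of all 2200 genes. Fn1, fibronectin, stood at 4.49 (4.24 to 4.75) and 7.94 (7.50 to 8.39), a ratio of 1.77 (1.63 to 1.92), with 0.815 and 2.26 in lymphoid cells. Col4a1, a type IV collagen chain, rose from 0.867 to 2.04, a ratio of 2.35 (1.99 to 2.80). Lymphoid cells stood at 0.387 and 2.77, above the fibrosis Spp1/Clu-high cells. Its log2 ratio turned to -4.64 with the level of the wider lymphoid group taken off, a size that depends on the floor used for such levels. Hspg2, perlecan, had a ratio of 1.89 (1.62 to 2.21) with lymphoid levels of 0.490 and 2.54. Agrn, agrin, which is little detected in lymphoid cells (0.101 and 0.188), stood at 1.86 and 2.74, a ratio of 1.47 (1.29 to 1.68), and Lamb2 had a ratio of 0.919 (0.764 to 1.10).

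Of the 15 genes that modify bile, 6 passed the filter, 1 rose and 0 fell, beside 2.77% and 3.09% of all 2200 genes. Cftr (chr6:18170687-18322768, plus strand), the cAMP-activated chloride channel that drives ductal secretion, rose from 0.441 (0.366 to 0.526) to 1.11 UMIs per 10000 (0.951 to 1.29), a ratio of 2.52 (1.99 to 3.20). It stood at 0.00687 and 0.0125 over all cells outside the rule, at 0.239 and 0.0805 in mesothelial cells, at 0.0022 and 0 UMIs per 10000 in lymphoid cells and 0 in the hepatocyte-list cells of both libraries. Thinned to 2000 UMIs, 6.76% (3.75 to 11.1) and 14.1% (7.51 to 23.4) of cells held a UMI, so the shares at equal depth overlap within counting error. The share without thinning was 33.3% and 59.8%.

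The other transporters differed less or were too sparse for the filter. Slc10a2, the apical sodium-dependent bile acid transporter, was counted 39 and 82 times, 0.141 and 0.526 UMIs per 10000, a ratio of 3.74 (2.52 to 5.62). Slc12a2, the basolateral chloride importer, stood at 0.289 and 0.623, a ratio of 2.15 (1.59 to 2.93). Ratios were 1.14 for the calcium-activated chloride channel Ano1 (0.968 to 1.34), 1.12 for carbonic anhydrase Car2 (0.931 to 1.36), 1.24 for Slc5a1 (1.10 to 1.41) and 1.15 for the sodium pump subunit Atp1b1 (1.08 to 1.21). Sctr, the secretin receptor, was counted only 24 and 18 times.

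Of the 8 keratin and junction genes, the 5 biliary transcription factors and the 3 cilium and polycystin genes that passed the filter, 0 rose or fell by 2 times, a share near the 2.77% and 3.09% of all 2200 genes. Krt18 had a ratio of 0.966 (0.906 to 1.03), Krt7 of 1.19 (0.979 to 1.45), Cldn7 of 0.959 (0.857 to 1.07), Cdh1 (E-cadherin) of 1.25 (1.17 to 1.34), Bicc1 of 1.18 (1.11 to 1.25) and Pkhd1 of 1.09 (0.992 to 1.20). The transcription factors Sox4 and Onecut2 had ratios of 1.08 (1.01 to 1.16) and 1.36 (1.26 to 1.46).

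Krt19 and Cldn3 had ratios below 1. Krt19 (chr11:100140810-100148665, minus strand), the classical bile duct keratin, stood at 3.65 (3.43 to 3.88) and 2.25 (2.02 to 2.50), a ratio of 0.617 (0.545 to 0.697), and its highest cells at 30.5 and 7.89. Its thinned share was 46.9% (39.9 to 53.9) and 30.6% (21.0 to 41.5), intervals that overlap. Over all members the ratio of Krt19 was 0.490 (0.433 to 0.553), past 2 times, and the hepatocyte-list cells held 0.378 and 0 UMIs per 10000 of it. Cldn3, a tight junction protein, had a ratio of 0.704 (0.640 to 0.775).

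**Figure D3:**
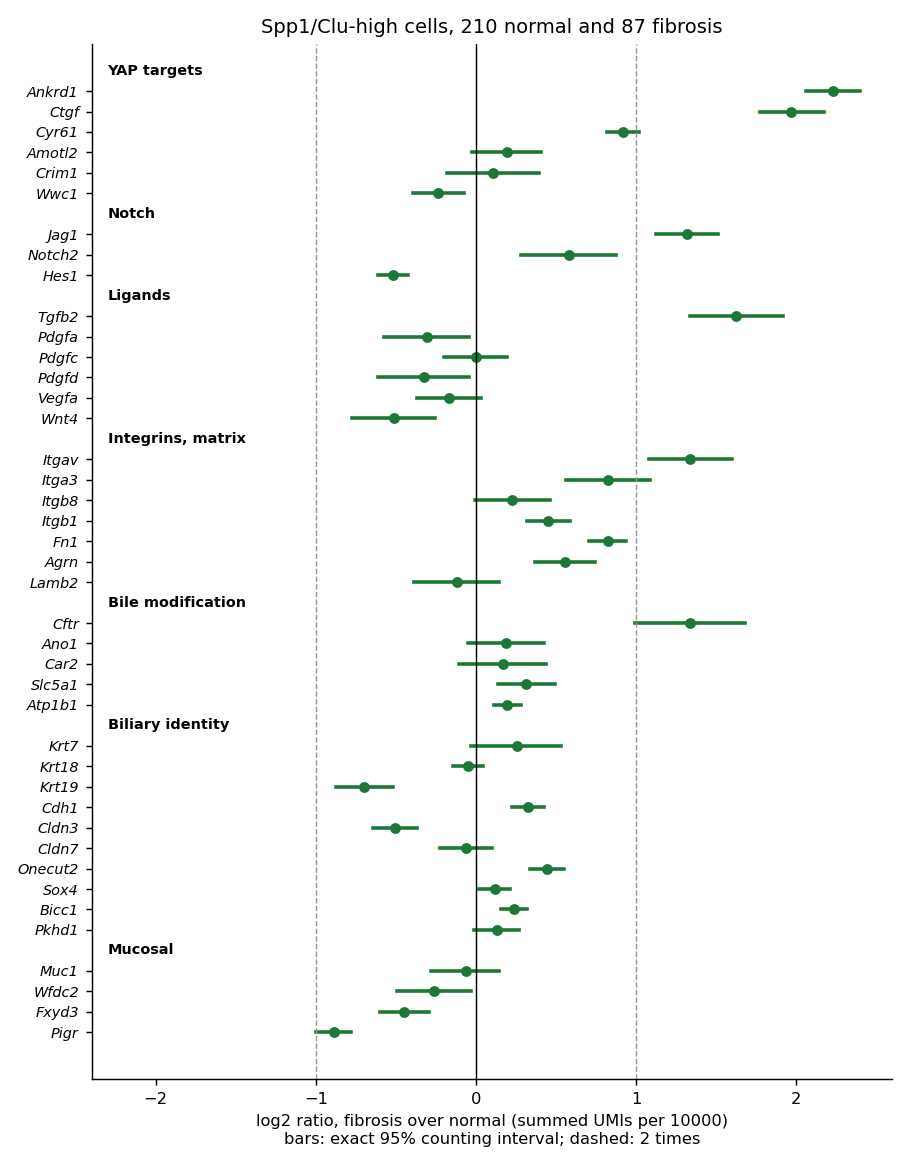
Log2 ratio of summed UMIs per 10000, fibrosis over normal, in 210 normal and 87 fibrosis Spp1/Clu-high cells, with the exact 95% counting interval as a bar and 2 times as dashed lines. Ankrd1, Ctgf, Jag1, Tgfb2, Itgav and Cftr lie beyond the upper line, and the genes of biliary identity lie between the lines.

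Of 10 genes linked to the ductular reaction, 6 passed the filter, 0 rose and 0 fell, near the 2.77% and 3.09% of all genes. Spp1 was equal at 179 and 180 UMIs per 10000 and Clu stood at 174 and 231, both used for the limit of this group and counted among the 6. Cd24a, a surface protein of biliary progenitor cells, stood at 3.76 and 6.50, a ratio of 1.73 (1.59 to 1.89), with 1.58 and 1.74 in lymphoid cells. Lcn2, lipocalin, stood at 2.64 and 1.52, a ratio of 0.576 (0.496 to 0.668), and Prom1 at 2.46 and 3.05, a ratio of 1.24 (1.10 to 1.39). Cd44, the hyaluronan receptor, was counted 59 and 131 times, a ratio of 3.95 (2.88 to 5.46), but stood higher in lymphoid cells (1.96 and 2.91) than in the Spp1/Clu-high cells (0.213 and 0.841).

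Of 8 mucosal and gland genes present in the tables, 4 passed the filter, with a median log2 ratio of -0.35. By 2 times 0 rose and 0 fell, near the 2.77% and 3.09% of all 2200 genes. Pigr (chr1:130826684-130852249, plus strand), the receptor that carries IgA into bile, stood at 10.7 (10.3 to 11.1) and 5.79 (5.42 to 6.18), a ratio of 0.541 (0.501 to 0.583). Its median per cell was 10.7 and 5.09, and its thinned share 79.7% (73.6 to 85.0) and 57.6% (46.4 to 68.3). Lymphoid cells also held more Pigr in the normal library, 1.52 against 0.423 UMIs per 10000 and 29.9% against 8.77% of thinned cells, and the part of such transcripts in this difference was not tested. Fxyd3, a regulator of the sodium pump, stood at 4.35 and 3.19, a ratio of 0.734 (0.659 to 0.815), and was nearly absent from lymphoid cells. Tff2, a trefoil peptide of mucous glands, was counted 160 and 27 times, a ratio of 0.300 (0.192 to 0.453), and Muc1 had a ratio of 0.956 (0.825 to 1.11).

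**Figure D4:**
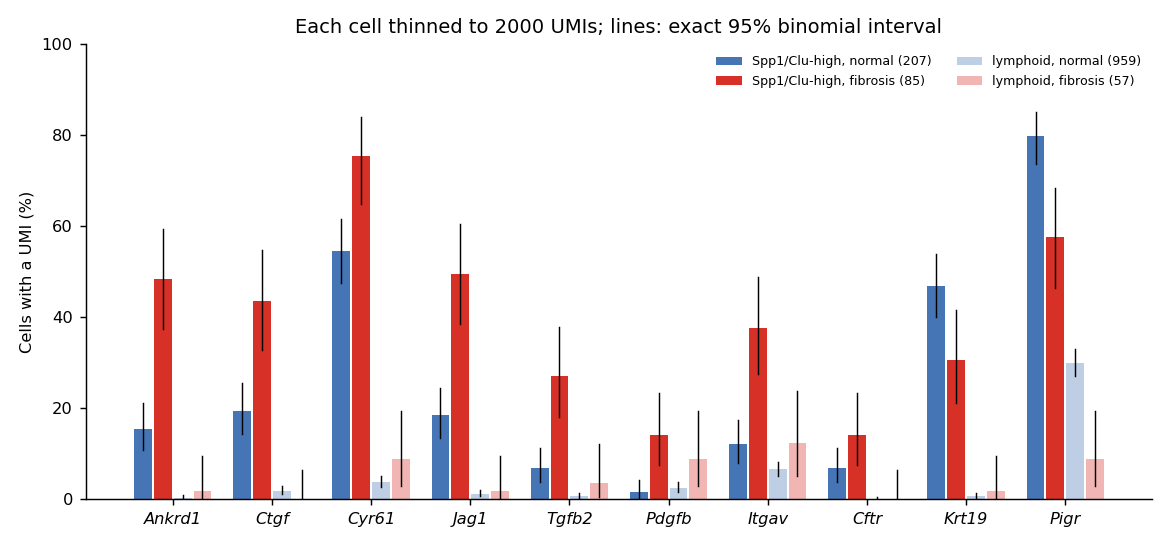
Share of cells with at least 1 UMI of a gene after each cell was thinned to 2000 UMIs, in Spp1/Clu-high cells (207 normal, 85 fibrosis) and lymphoid cells (959 normal, 57 fibrosis), with the exact 95% binomial interval as a line. Ankrd1 went from 15.5% to 48.2% and Jag1 from 18.4% to 49.4% while lymphoid cells stayed at 1.75% or less for both genes.

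Of 12 chemokines and cytokines, 3 passed the filter and all 3 rose, Cxcl1, Cxcl2 and Cxcl16, beside 2.77% of all 2200 genes. Cxcl1, a neutrophil attractant, rose from 0.636 (0.545 to 0.737) to 1.50 (1.32 to 1.71), a ratio of 2.36 (1.93 to 2.89), with 0.384 and 0.987 in lymphoid cells. Cxcl16, which attracts natural killer T cells, rose from 0.498 to 1.34, a ratio of 2.69 (2.16 to 3.36), with 0.257 and 0.940 in lymphoid cells. Cxcl2 was counted 13 and 258 times, but 47.7% of the fibrosis UMIs came from 1 cell and lymphoid cells went from 0.108 to 1.50. Ccl2 (3 and 67 UMIs) had 80.6% of its fibrosis UMIs in 1 cell, and Ccl20 (0 and 25 UMIs) 88.0%. For these genes the lymphoid level moved the same way as the Spp1/Clu-high cells, except for Ccl20, which had 0 UMIs in lymphoid cells of both libraries.

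Antigen presentation and stress lists are given by their counts, beside 2.77% of all genes higher. Of the 5 class I genes past the filter 0 rose, with ratios of 1.17 for H2-K1 (1.12 to 1.21) and 1.52 for B2m (1.45 to 1.58). In lymphoid cells H2-K1 stood at 26.4 and 39.8 and B2m at 30.5 and 50.5 UMIs per 10000. Of 4 class II genes 1 rose, H2-Aa, with a ratio of 2.30 (1.91 to 2.77) that turned to a log2 ratio of -0.16 without the 3 highest cells of each library. Lymphoid cells, whose T and B cell make-up differed between the libraries, stood at 9.90 and 17.4. Among 9 immediate early genes Ier3 alone rose, from 1.10 to 2.77 (ratio 2.53, 2.18 to 2.93, lymphoid cells 0.286 and 1.36), while Fos and Jun had ratios of 0.748 (0.707 to 0.791) and 0.684 (0.651 to 0.718). These genes respond to tissue dissociation, and their part in other differences was not tested.

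In the antioxidant list, 1 of 5 genes rose, beside 2.77% of all 2200 genes. It was Hmox1, of which 71% of the fibrosis UMIs lay in 1 cell. Gclm and Gclc, the subunits of the enzyme that begins glutathione synthesis, had ratios of 1.18 (1.03 to 1.35) and 0.949 (0.791 to 1.14) in Spp1/Clu-high cells. The same genes stood at 1.75 and 6.09 (Gclm) and 2.59 and 7.08 (Gclc) in hepatocyte-list cells of the normal and fibrosis library. Srxn1, sulfiredoxin, stood at 0 and 3.77 UMIs per 10000 in hepatocyte-list cells and at 0.0831 and 0.186 in Spp1/Clu-high cells.

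Growth arrest and cell cycle genes were sparse. Cdkn1a, the p21 inhibitor of cyclin-dependent kinases, rose from 0.560 to 1.69 (ratio 3.02, 2.46 to 3.70), with lymphoid levels of 0.389 and 1.32. Cdkn1b had a ratio of 1.26 (1.04 to 1.53) and Pcna of 1.51 (1.27 to 1.81). Mcm6, a subunit of the replicative helicase, rose from 0.423 (0.349 to 0.506) to 1.12 (0.957 to 1.30), a ratio of 2.64 (2.08 to 3.37), with no rise in lymphoid cells (0.786 and 0.705). The mitotic list stood at 6.03 and 2.91 in lymphoid cells, so their level of Mcm6 cannot be read as background alone. Mcm2 and Mcm5, other helicase subunits, stayed under the level filter, Mcm2 with 70 and 94 UMIs (ratio 2.39, 1.73 to 3.30) and Mcm5 with 54 and 84 (2.76, 1.94 to 3.97).

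Of 11 mesenchymal genes, 2 passed the filter and 1 rose, beside 2.77% of all 2200 genes. Vim, vimentin, rose from 0.441 to 1.69 (ratio 3.83, 3.08 to 4.79), but stood at 4.32 and 4.51 in lymphoid cells and in 9.18% and 18.8% of thinned Spp1/Clu-high cells against 39.9% and 57.9% of lymphoid cells. S100a6 had a ratio of 1.66 (1.37 to 2.02), with 4.18 and 2.30 in lymphoid cells. Over all members 4 mesenchymal genes passed the filter and all 4 rose (Vim, S100a6, Cdh2 and Zeb2), beside 6% of all 2116 genes. The log2 ratio of S100a6 turned to -0.12 with the rule's sum taken per 10000 UMIs and to -1.83 at a mitochondrial limit of 5%, and that of Cdh2 to -0.13 without members that held 5 or more UMIs of other cell types. The stellate cell and fibroblast list moved with them, at 1.02 and 36.7 UMIs per 10000 in all members, and at 0.531 (range over cells 0 to 6.42) and 7.69 (0 to 170) in Spp1/Clu-high cells. Its part in these values was not tested.

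The 10 highest ratios of the Spp1/Clu-high cells, chosen by the fixed rule from 358 genes, were those of Ankrd1, Basp1, Vcam1, Ctgf, Pam, Lgmn, Ctsb, Mcm6, Sirpa and Cftr. Basp1, a membrane protein of the cell cortex, rose from 0.256 to 1.14 (ratio 4.43, 3.35 to 5.92), with 0.321 and 0.564 in lymphoid cells. Vcam1, Pam, Lgmn, Ctsb and Sirpa rose in lymphoid cells by more than in the Spp1/Clu-high cells: Vcam1, a leukocyte adhesion protein, stood at 0.325 and 1.44 in the latter and at 0.176 and 2.16 in the former. With the level of the wider lymphoid group taken off, the log2 ratio turned to -2.52 for Vcam1, -3.0 for Pam, -5.44 for Ctsb and -4.57 for Sirpa. The sizes of these ratios depend on a floor of 3 UMIs for levels at or below the lymphoid one. Ankrd1, Ctgf and Cftr were the genes among the 10 at 0.047 or less in fibrosis lymphoid cells. Mcm6 did not rise in lymphoid cells, which held more of it than normal Spp1/Clu-high cells did.

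The 10 lowest ratios were led by hepatocyte transcripts, Cps1, Serpina1d, Wfdc21, Fga, Tat, Apoc4, Rbp4, Fgg and Cdo1, at 0.108 to 0.316, and all 9 were also lower in fibrosis lymphoid cells. With the level of the wider lymphoid group taken off, the log2 ratio turned to 6.50 for Rbp4, 3.69 for Fgg and 4.77 for Cdo1. A level at or below the lymphoid one was set to a floor of 3 UMIs. The size of such a ratio depends on that floor, and only its direction can be read. The hepatocyte list stood at 200 and 113 UMIs per 10000 in Spp1/Clu-high cells and at 241 and 33.6 in lymphoid cells. Txnip, the thioredoxin-interacting protein, which restrains glucose uptake, was the exception. It fell from 8.61 (8.27 to 8.97) to 2.46 (2.22 to 2.72), a ratio of 0.286 (0.256 to 0.319), while lymphoid cells stood at 4.90 and 6.30. Its median per cell was 7.69 and 2.46, its highest cells 41.7 and 8.95, and its thinned share 75.8% (69.4 to 81.5) and 42.4% (31.7 to 53.6), against 61.4% and 64.9% in lymphoid cells.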

How the data were processed

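Cells came from 1 normal and 1 CCl4 mouse, each a single 10x Genomics 3′ library with 44062632 and 53288463 UMIs. The authors aligned the reads to mm10 and produced the deposited gene-by-cell tables of UMI counts with Cell Ranger 3.0.1, per the labels' processing notes; the study's methods add that doublets were removed with Scrublet, and no further caller was run here. Counts were used as deposited. Cells with under 10% mitochondrial UMIs and over 200 genes were kept.

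Counts of a gene were summed over the members of a library and divided by their summed UMIs (per 10000), with exact 95% Poisson intervals. Ratios of fibrosis over normal carry exact conditional (Clopper-Pearson) intervals and shares carry exact binomial ones. Where a gene had 0 UMIs in a library, a floor of 3 UMIs was used for its bound. The same floor stood in for a level at or below the lymphoid level taken off. A gene was called, and is said to have risen or fallen, at 2 times among genes with 1 or more UMI per 10000 in either library. With 1 library per condition no p-value was computed. Cells were thinned once to 2000 UMIs for shares. Lymphoid cells were kept non-members with 3 or more UMIs of T or B cell markers and at most 1 macrophage-marker UMI. The 10 highest and 10 lowest ratios were named among genes with a UMI in at least 10% of cells of the higher library, at most 20% of its UMIs in 1 cell, and a log2 ratio at least 1 away from that of lymphoid cells (pseudocount 0.5 UMI). Leiden clustering used scanpy 1.11.5 (2000 genes, 10 components, 20 neighbours, resolution 0.8); other steps used Python 3.11.15, numpy 2.4.6, pandas 2.3.3 and scipy 1.17.1. Promoters came from RefSeq GRCm38.p6 and gene positions from GENCODE for the same assembly. The members and lists were chosen with earlier results of these data known. Agr2 and Anxa13 had no row in either table.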

Additional observations from a re-analysis of the deposited data

How the results depend on the processing

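The share of members rested on the rule. In the normal library it was 4.34% at a sum of 3, 3.01% at a sum of 10, 4.58% at 5 per 10000, 0.594% at a mitochondrial limit of 5% (11 normal and 14 fibrosis members left), 1.75% without members with 5 or more UMIs of other cell types, and 2.81% for Spp1/Clu-high cells. In the fibrosis library it was 1.47% with at least 3 of the 4 genes and also as Leiden clusters, 0.821% at the 5% limit, 0.163% without members with other markers (10 left), and 1.42% for Spp1/Clu-high cells. The 5% limit thus turned the order of the libraries. The genes called higher over all members (127) became 72 with at least 3 of the 4 genes, 567 at the 5% limit, 554 without members with other markers, 64 as Leiden clusters, 592 as UMIs per cell, 528 with the lymphoid level taken off, 64 without the 3 top cells of each gene, 61 in Spp1/Clu-high cells, and 250 or 56 at a minimum of 0.5 or 2 UMIs per 10000. Those called lower (92) became 34 at a sum of 10, 39 with 3 of the 4 genes, 289 at the 5% limit, 242 without members with other markers, 44 as UMIs per cell, 326 with the lymphoid level taken off and 49 at a minimum of 2. In Spp1/Clu-high cells (61 higher, 68 lower) the counts were 249 and 375 with the wider lymphoid level taken off, 129 and 114 at a minimum of 0.5, 26 and 34 at a minimum of 2, and 36 higher without the 3 top cells. Directions turned over all members for S100a6 (log2 ratio -0.12 at 5 per 10000, -1.83 at the 5% limit), Fn1 (-0.079 at that limit, -0.16 without members with other markers) and Cdh2 (-0.13 in the latter). With the lymphoid level taken off they turned for Col4a1 (-0.38), Cxcl16 (-0.47), Hspg2 (-5.27), Pam (-3.73), Vcam1 (-3.14), Gnmt (5.78) and Pck1 (4.92). In Spp1/Clu-high cells the wider lymphoid level turned Cdo1 (4.77), Fgg (3.69), Rbp4 (6.50), Col4a1 (-4.64), Ctsb (-5.44), Pam (-3.0), Sirpa (-4.57) and Vcam1 (-2.52), and leaving out the 3 top cells turned H2-Aa (-0.16). Levels at or below the lymphoid level were set to a floor of 3 UMIs, so the sizes of such log2 ratios depend on it. The cause was not tested beyond what each alternative leaves out. Ankrd1 and Ctgf kept a 2 times higher level in Spp1/Clu-high cells under a limit of 200, the mean over cells, the lymphoid level taken off and without the 3 top cells, with log2 ratios of 2.12 to 2.58 and 1.69 to 2.08. These alternatives and the limit of 100 were chosen after seeing the data. No paired analysis was possible because each condition has 1 library.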
